A study of Mus musculus with 2 samples.

Results

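The loci of 5 growth factor receptor genes, Pdgfra, Pdgfrb, Tgfbr2, Egfr and Fgfr1, were followed in a chromatin immunoprecipitation (ChIP) experiment for Brg1, an ATPase of the Swi/Snf nucleosome remodelling complex. The members were chosen by name, with earlier results of these data known. Each was measured over a fixed mm9 interval widened by 20 kb on each side. The widened loci gave 598 windows of 1 kb out of 2641863 in the series. The cells were primary mouse embryonic fibroblasts, wild type, of mixed C57BL/6 and 129 background, taken from E13.5 embryos. The Brg1 ChIP library was made from them with a rabbit polyclonal antibody against SNF2β/BRG1, and the input library is their chromatin with no antibody. Both libraries started from nuclei cut with micrococcal nuclease and briefly sonicated, and were sequenced on the Helicos single-molecule platform. The labels name no separate cultures or embryos, no Brg1-deficient cells and no control antibody, and no RNA was measured here, so the labelled cell type could not be checked against its markers. Each group is a single library, so nothing here has a replicate check. Every interval and p-value below compares the tags of these libraries, covers counting error only, and does not compare conditions.

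Growth factor receptors sit in the plasma membrane and turn the binding of a secreted ligand into kinase activity. Pdgfra and Pdgfrb are the receptor tyrosine kinases for platelet-derived growth factors, which drive the division and migration of fibroblasts, and both receptors are widely used as markers of mesenchymal cells. Fgfr1 and Egfr are the receptor tyrosine kinases for fibroblast growth factors and for the epidermal growth factor family. Tgfbr2 is the serine/threonine kinase that binds transforming growth factor beta and activates its partner Tgfbr1, which then phosphorylates Smad proteins. Swi/Snf slides and evicts nucleosomes with the energy of ATP, mainly at promoters and enhancers.

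The Brg1 ChIP library held 13581267 tags and the input 5778620, or 5.47 and 2.32 tags per kb of autosome. Ratios below are ChIP over input, with each input tag weighted by the quotient of the autosomal totals, which was 2.36. The median autosomal stretch lay below 1 on this scale, at 0.909 to 0.936 for the lengths used here. Scaling to the median 10 kb window in place of the totals would lower the scale to 90.0% of its value, a shift of -0.15 on the log2 scale, and raise every ratio alike. Positions are mm9 coordinates copied from the deposited tables, whose first base may be numbered 0 or 1. The intervals are rounded to 1 kb, and the exact transcription starts were not placed on mm9. The interval of Pdgfrb spans 42 kb against 39.9 kb for the gene in RefSeq on GRCm38, and that of Tgfbr2 89 kb against 87.7 kb, so that an edge may lie more than 1 kb from the start.

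Promoter sequences were available for Pdgfra, Tgfbr2 and Egfr only, and these are shown. The windows with the most ChIP tags in these loci began 1 or 2 kb inside the 5′ edge, and the printed bases were not placed on mm9. The sequences are RefSeq's on GRCm38.p6, a later build than that of the tags, and run 5′ to 3′ along each gene from 250 bases before to 50 bases after its start, with CpG dinucleotides in capitals.
Pdgfra: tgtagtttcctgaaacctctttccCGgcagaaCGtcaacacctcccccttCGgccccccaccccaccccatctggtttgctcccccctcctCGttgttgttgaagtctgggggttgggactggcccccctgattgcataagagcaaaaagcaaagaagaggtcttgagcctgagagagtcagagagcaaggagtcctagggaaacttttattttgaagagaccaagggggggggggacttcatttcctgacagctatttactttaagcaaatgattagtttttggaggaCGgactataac
Tgfbr2: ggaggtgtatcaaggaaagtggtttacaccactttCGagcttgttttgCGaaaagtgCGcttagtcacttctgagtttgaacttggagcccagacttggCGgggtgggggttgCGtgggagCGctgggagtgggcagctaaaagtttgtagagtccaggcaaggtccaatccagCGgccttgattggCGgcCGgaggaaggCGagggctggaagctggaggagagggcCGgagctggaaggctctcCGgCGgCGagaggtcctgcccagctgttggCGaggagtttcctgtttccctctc
Egfr: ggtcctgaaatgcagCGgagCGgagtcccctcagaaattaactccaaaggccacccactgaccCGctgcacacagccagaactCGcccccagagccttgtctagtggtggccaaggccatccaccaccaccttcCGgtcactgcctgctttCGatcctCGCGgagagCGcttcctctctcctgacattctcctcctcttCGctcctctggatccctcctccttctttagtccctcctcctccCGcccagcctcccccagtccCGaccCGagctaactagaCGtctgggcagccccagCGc
These lie at chr5:75152001-75152300 on the plus strand, chr9:116175314-116175613 on the minus strand and chr11:16751953-16752252 on the plus strand. The Pdgfra promoter held 5 CpG dinucleotides, below the median of 7 over the 32851 promoters of the table, and the Tgfbr2 and Egfr promoters held 15 each, more than 65.4% of them. Their G and C content was 51.0%, 59.0% and 62.3%. The 6 motifs searched on both strands were the GC box (GGGCGG), the CCAAT box (its name gives its letters), the TATA box (TATAAA), the AP-1 site (TGANTCA), the E-box (CACGTG) and the cyclic AMP response element (TGACGTCA), and no matches overlapped. The Tgfbr2 promoter held CCAAT at 2 places, beginning at bases 166 and 183 of the printed sequence, the second on the other strand. CCAAT is found in 37.4% of all promoters of this length. The Egfr promoter held 1 match to GGGCGG, on the other strand from base 242, a motif found in 35.7% of promoters, and the Pdgfra promoter held none of the 6. These matches describe the letters and are not binding data. Pdgfrb and Fgfr1 are given by name only.

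In every one of the 5 loci the 1 kb window with the most ChIP tags lay within 3 kb of the 5′ edge of the gene. In Tgfbr2 it was the window 1 to 2 kb inside the edge, with 52 ChIP tags against 4 input tags, and in Pdgfrb the first window inside it, with 48 against 4. Fgfr1 had 37 against 9 and Egfr 34 against 5, both 1 to 2 kb inside, and Pdgfra had 35 against 1, 2 to 3 kb inside. In Fgfr1 and Egfr the lead was narrow. Among windows with input tags, the window with the most ChIP tags also had the highest ratio in Pdgfra only. In Tgfbr2 it had a ratio of 5.52, and a window 29 kb inside, with 23 against 1, had 9.76. In Pdgfrb it had 5.09, and a window 24 kb inside, with 17 against 1, had 7.21. A window 25 kb inside Fgfr1 held 34 against 5, a ratio of 2.89, and its highest window 1.74. In Egfr a window 92 kb inside held 33 against 2, a ratio of 7.00, and its highest window 2.89. Another, starting 17 kb before the Egfr edge, held 32 against 2. These windows away from the edge were singled out after their values were seen. Only 0.0196% of autosomal windows held as many ChIP tags as the Tgfbr2 window, and 0.327% held as many as the Egfr window, which had the fewest of the 5. In each of the 5 highest windows both strands contributed tags, nearly all at distinct positions. The 52 tags of Tgfbr2, for example, had 26 on each strand at 51 distinct positions. The 35 of Pdgfra lay at 34 positions, with 16 tags on the plus strand and 19 on the other. The distinct positions say little about these windows, because no strand and position in either library held more than 2 tags.

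**Figure D1:**
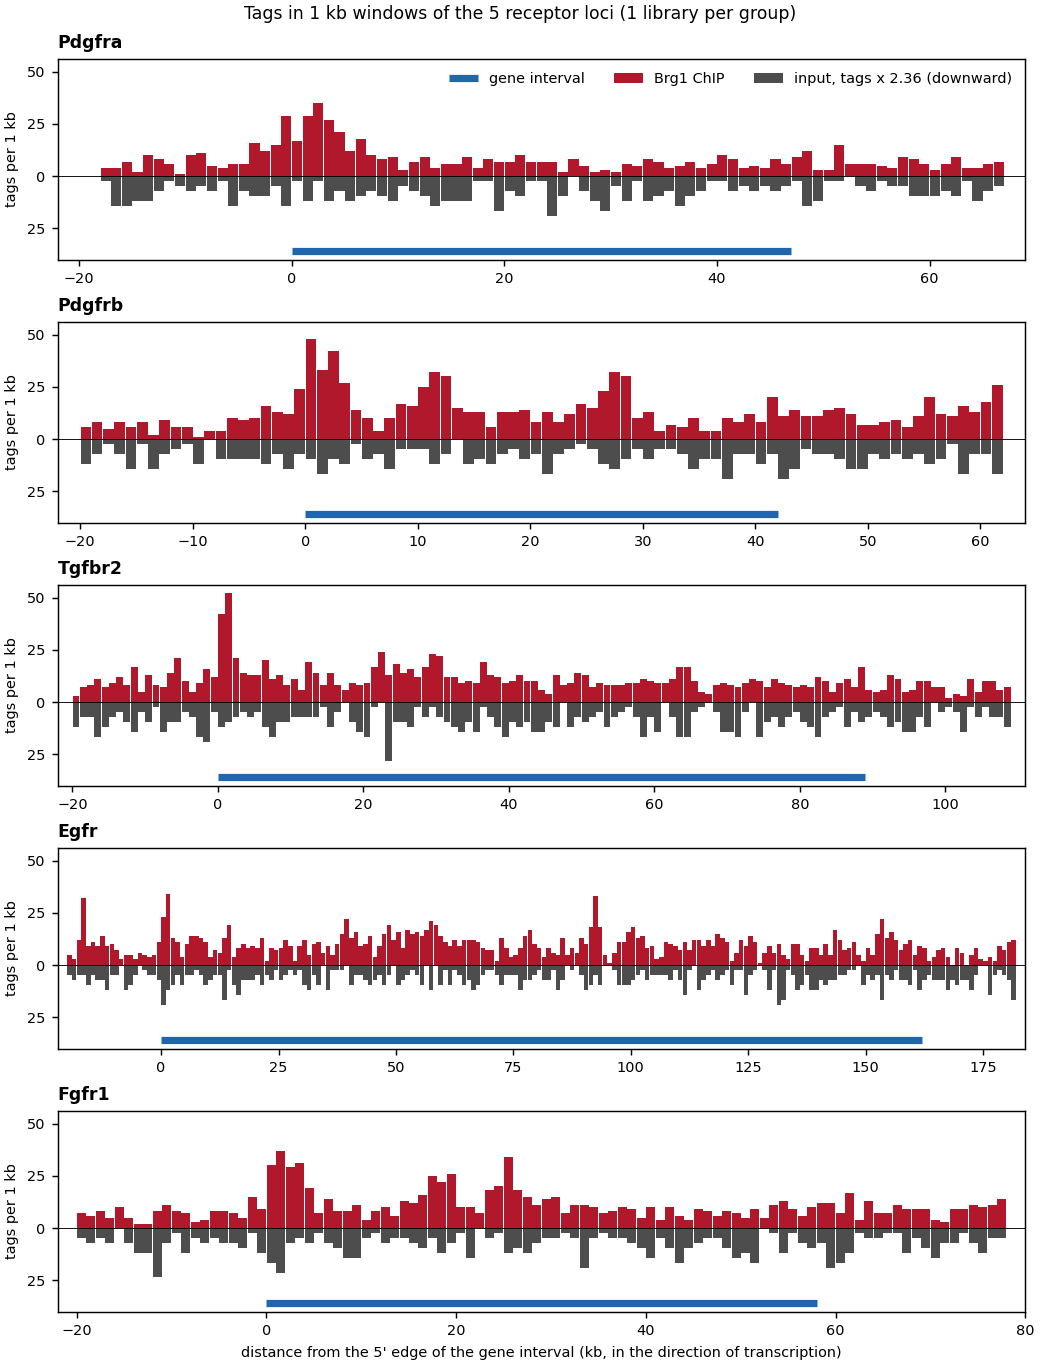
Tags in 1 kb windows along each widened locus, with the ChIP drawn upward and the input, multiplied by the scale of 2.36, drawn downward. The x axis is the distance in kb from the 5′ edge of the gene interval, which the blue bar spans. The highest ChIP window of each locus, 34 to 52 tags, stands within 3 kb of that edge. In Egfr and Fgfr1 windows farther away held nearly as many ChIP tags.

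Taken over 4 kb, 2 kb on each side of the edge, the ChIP/input ratio exceeded 1 beyond counting error in all 5 genes, narrowly so in Egfr. The Tgfbr2 region held 122 ChIP and 19 input tags for a ratio of 2.72 (exact 95% interval 1.67 to 4.68). That of Pdgfra held 90 and 14, a ratio of 2.73 (1.54 to 5.19), and that of Pdgfrb 117 and 20, a ratio of 2.48 (1.54 to 4.21). Fgfr1 followed with 91 and 22, a ratio of 1.76 (1.09 to 2.94), and Egfr with 73 and 18, a ratio of 1.72 (1.02 to 3.06). Scaled by the totals of chromosome 11 alone, the interval of Egfr was 0.981 to 2.96 and took in 1. It also took in 1 with 1 tag per strand within 5 bp, at a ratio of 1.65 (0.969 to 2.94). With 1 kb in place of 2 kb on each side of the edge the ratio was 4.36 in Pdgfrb (2.01 to 11.2), 1.38 in Fgfr1 (0.707 to 2.89) and 1.31 in Egfr (0.649 to 2.87), so the order of the genes depended on the size of the region. At 2 kb on each side no pair among the 5 differed beyond counting error, and pairs were not tested at the smaller size. Across the 10 pairs the widest contrast, Pdgfra or Tgfbr2 over Egfr, was 1.58, with an interval of 0.690 to 3.69 for Pdgfra and of 0.730 to 3.41 for Tgfbr2.

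Set against all 561768 autosomal stretches of 4 kb with at least 10 tags, these regions ranked higher in ChIP tags than in ratio. They held more ChIP tags than 98.1% of the stretches (Egfr) to 99.9% (Tgfbr2). In ratio Pdgfra and Tgfbr2 stood above 96.8% of them, Pdgfrb above 95.7%, Fgfr1 above 88.3% and Egfr above 87.9%. Input tags were dense at the same places, above 82.1% of stretches in Pdgfra and above 96.1% to 99.5% in the other 4. The 4 kb around the Fgfr1 edge, for example, had 4.16 times the mean autosomal density of ChIP tags and 2.37 times that of input tags.

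The 5′ region stood out from the rest of its own locus beyond counting error in Pdgfra, Tgfbr2 and Pdgfrb. In Pdgfra its ChIP/input odds were 2.81 times those of the rest of the widened locus (exact interval 1.56 to 5.45), in Tgfbr2 2.29 times (1.38 to 3.98) and in Pdgfrb 1.73 times (1.05 to 2.99). The Pdgfrb value was near the limit, since with tags not moved along their strand it was 1.62 (0.992 to 2.77), and with 1 kb on each side it was 3.04 (1.38 to 7.90). In Fgfr1 the factor was 1.30 (0.792 to 2.21) and in Egfr 1.13 (0.663 to 2.04), so that a difference was not detectable at this depth. With 5 kb on each side of the edge Fgfr1 joined the first 3, at 1.56 (1.08 to 2.32), while Egfr stayed at 1.04 (0.688 to 1.63). The difference in this factor between genes was not tested.

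Away from the 5′ end some of the loci differed beyond counting error. The stretches measured there hold more tags than the 5′ regions, and whether the loci differed more than at the 5′ end was not tested. In the gene interval from 10 kb inside the edge to its far end, Pdgfrb had 448 tags in the ChIP and 115 in the input, which is a ratio of 1.65 (1.34 to 2.05), and Egfr 1515 and 397, a ratio of 1.62 (1.45 to 1.81). Fgfr1 held 532 and 149, a ratio of 1.52 (1.26 to 1.83), and Tgfbr2 854 and 293, a ratio of 1.24 (1.08 to 1.42). Pdgfra alone had fewer ChIP tags there than the input predicted, with 220 and 125, a ratio of 0.747 (0.597 to 0.938). Relative to the median 10 kb window its ratio was 0.830, with an interval of 0.664 to 1.04, so a deficit against the input depended on the scaling. The scale cancels against the 200 kb on each side of the widened locus, where the Pdgfra body had 0.786 times the odds (0.620 to 0.998). On the 3′ side alone those 200 kb had a ratio of 0.750 (0.669 to 0.840), close to that of the body. Only 21.8% of the 37 kb autosomal stretches had a lower ratio than the Pdgfra body, against 99.1% of the stretches of matching length below Egfr and 96.3% below Pdgfrb.

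The odds of these bodies were also compared between genes, where a scale common to all loci cancels. Its odds were exceeded 1.66 times by Tgfbr2 (1.27 to 2.16), the next in order, 2.03 times by Fgfr1 (1.51 to 2.72), 2.17 times by Egfr (1.68 to 2.79) and 2.21 times by Pdgfrb (1.62 to 3.02). Tgfbr2 was also exceeded by Egfr (1.31, 1.10 to 1.56) and by Pdgfrb (1.34, 1.04 to 1.72). Its neighbour Fgfr1 did not differ from it beyond counting error (1.22, 0.973 to 1.55), nor did Pdgfrb, Egfr and Fgfr1 among themselves. These intervals are not adjusted for the number of pairs. Within Pdgfra the 5′ region had 3.64 times the odds of the gene body (1.96 to 7.23), whereas in Egfr the factor was 1.06 (0.619 to 1.91). In Egfr the ChIP tags themselves were denser in the 5′ region, at 18.2 per kb, than in the body, at 9.97 per kb, and so were the input tags, at 1.94 and 1.12 times their autosomal mean. The difference in this factor between Pdgfra and Egfr was not tested.

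**Figure D2:**
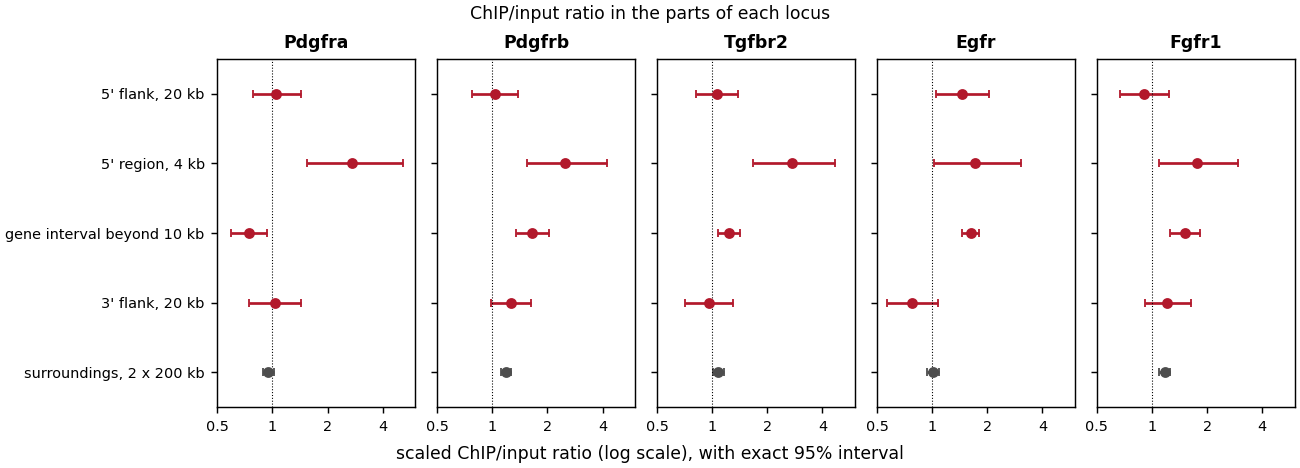
Scaled ChIP/input ratio, on a log axis, of 5 parts of each locus, with exact 95% intervals; the dotted line marks a ratio of 1 and the grey point the 200 kb on each side beyond the widened locus. In Pdgfra the 5′ region (2.73) and the gene interval beyond 10 kb (0.747) lie on opposite sides of 1, and in Egfr they lie close together (1.72 and 1.62).

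In all flanks but 1 the interval of the ratio included 1, and the flanks were not compared with their surroundings. Upstream, the 20 kb before the edge had ratios of 1.05 in Pdgfra, 1.03 in Pdgfrb, 1.06 in Tgfbr2 and 0.901 in Fgfr1, and each interval included 1. Egfr was the exception, with 168 ChIP and 49 input tags for a ratio of 1.45 (1.05 to 2.04). A single window of its flank, 16 to 17 kb before the edge, held 32 of those ChIP tags against 2 input tags, and was singled out after its values were seen. Downstream, the 20 kb past the far end ranged from 0.778 in Egfr (110 ChIP and 60 input tags, 0.563 to 1.08) to 1.26 in Pdgfrb (252 and 85, 0.980 to 1.63). In Egfr the gene body had 2.08 times the odds of this 3′ flank (1.46 to 2.94). In the other 4 genes the same factor ranged from 0.726 in Pdgfra to 1.31 in Pdgfrb, with intervals that included 1.

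Compared with the 200 kb on each side of the widened locus, Egfr again stood out most. Its widened locus held 1940 ChIP and 540 input tags for a ratio of 1.52 (1.39 to 1.68), and the surroundings 2369 and 993, a ratio of 1.01 (0.940 to 1.09), so that the odds differed by a factor of 1.51 (1.33 to 1.70). The widened Pdgfrb locus had 1088 ChIP and 307 input tags and 1.27 times the odds of its surroundings (1.10 to 1.47). Fgfr1 had 1052 and 324, with a factor of 1.18 (1.03 to 1.37), and Tgfbr2 1407 and 477, with 1.16 (1.02 to 1.31). In Pdgfra, with 693 and 278, the factor was 1.11 (0.949 to 1.31) and took in 1. The surroundings were not uniform. On the 5′ side of Tgfbr2 the ratio was 1.34 (1.22 to 1.47), close to that of the gene, and on its 3′ side 0.793 (0.713 to 0.883). Pdgfrb had 1.33 (1.21 to 1.46) on its 5′ side and 1.04 (0.953 to 1.14) on its 3′ side. Pdgfra likewise had 1.11 (1.01 to 1.23) on its 5′ side and 0.750 (0.669 to 0.840) on its 3′ side. Fgfr1 went the other way, with 1.04 (0.949 to 1.15) on its 5′ side and 1.29 (1.18 to 1.42) on its 3′ side, and the sides of Egfr had 1.07 (0.961 to 1.19) and 0.959 (0.862 to 1.07).

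As whole gene intervals, 4 of the 5 had a ratio above 92.7% to 99.3% of the autosomal stretches of their length. Pdgfrb held 669 ChIP and 153 input tags over 42 kb, a ratio of 1.86 (1.55 to 2.23), above 98.8% of the 55612 autosomal stretches of that length. Egfr held 1662 and 431 over 162 kb, a ratio of 1.64 (1.47 to 1.82), above 99.3% of 14663. Fgfr1 held 726 and 193 over 58 kb, a ratio of 1.60 (1.36 to 1.88), above 97.1%, and Tgfbr2 1061 and 332 over 89 kb, a ratio of 1.36 (1.20 to 1.54), above 92.7%. Pdgfra, with 406 and 161 over 47 kb, had a ratio of 1.07 (0.889 to 1.29), above 71.2%. Neighbours in this order did not differ beyond counting error except the last pair, Tgfbr2 over Pdgfra (1.27, 1.01 to 1.59). The input was itself denser than the autosomal mean in all 5 intervals, from 1.15 times in Egfr to 1.61 times in Tgfbr2, and the share of this in the ratios was not tested. Egfr combined the lowest of these input densities with 1.88 times the mean density of ChIP tags, and Pdgfrb had 2.91 times the mean in the ChIP and 1.57 times that of the input library.

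**Figure D3:**
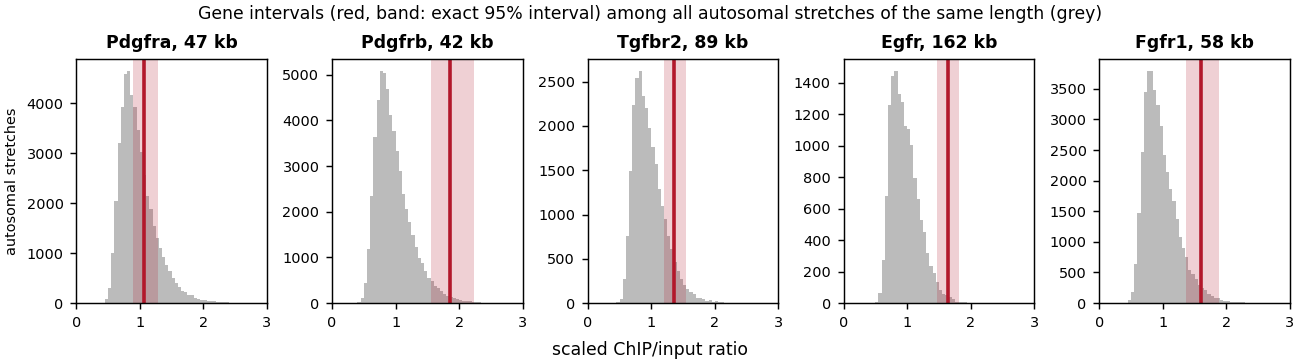
Distribution of the scaled ChIP/input ratio over all autosomal stretches with at least 100 tags and the length of each gene interval (grey, number of stretches), with the ratio of the gene interval as a red line and its exact 95% interval as a band. Pdgfrb (1.86) and Egfr (1.64) lie at the upper end, and Pdgfra (1.07) inside the bulk.

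Within the widened loci the ChIP tags formed blocks, a single one in Pdgfra and more in the other genes. Windows with at least 11 ChIP tags, about 2 times the autosomal mean, made up 37.5% of the 598 windows, against 9.61% of autosomal windows. This counts ChIP tags alone and is not adjusted for the input, which was itself denser than the autosomal mean in these gene intervals. By ratio, the median tested 1 kb window had 1.41 in the 5 loci, against 1.13 over all tested windows. The share was 54.9% in Pdgfrb, 40.3% in Tgfbr2, 38.6% in Egfr and 35.7% in Fgfr1, and 16.1% in Pdgfra. The following blocks are runs of at least 4 such windows, so they were picked on their ChIP tags and their ratios are a description. Pdgfra had 1 run, of 11 kb from 4 kb before to 7 kb after the edge, with 231 ChIP and 40 input tags. Pdgfrb had 5, and the 3 nearest its 5′ end lay across the edge (229 and 38 tags over 9 kb), at 8 to 16 kb (161 and 23) and at 23 to 29 kb (129 and 20). Fgfr1 had 3, at 0 to 5 kb (146 and 24), 14 to 20 kb (114 and 19) and 23 to 31 kb (145 and 24), with ratios of 2.55 to 2.58. Tgfbr2 had 2, an 11 kb run at the edge (227 and 45) and a 12 kb run at 21 to 33 kb (200 and 43). Egfr had 8, the longest being 9 kb at 52 to 61 kb inside the gene, with 144 ChIP and 19 input tags, and its 5′ run was 5 kb long, with 92 and 22. Only Pdgfra therefore had no such run beyond its 5′ end. Runs were not counted across the genome, and the widened loci differ in length, from 82 kb in Pdgfrb to 202 kb in Egfr. Not every run had a ratio clear of 1. The Pdgfrb run at 41 to 49 kb had 1.31 (0.887 to 1.98), and the Egfr run at 64 to 68 kb had 1.25 (0.694 to 2.36).

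At 1 kb resolution few of these windows could be called one by one. Windows were tested across the genome with a two-sided exact binomial test and Benjamini-Hochberg adjustment, and called at an adjusted p under 0.05 with a ratio of at least 1.5 or at most its inverse. Of the 428 windows tested in the 5 loci 2 were higher in the ChIP (0.467%), near the background of 0.380% of 706215 tested windows. None was lower, against a background of 0.00666%. One was the Tgfbr2 window at chr9:116083000-116083999, with 52 ChIP and 4 input tags for a ratio of 5.52 (2.03 to 21.0) and an adjusted p of 0.0296 by the exact test. The other was the Pdgfra window at chr5:75550000-75550999, with 35 ChIP tags and 1 input tag, a ratio of 14.9 (2.50 to 603) and an adjusted p of 0.0344 by the exact test. The first window of Pdgfrb, with 48 and 4, missed the threshold at an adjusted p of 0.0534 by the exact test and passed it at 0.0435 under the minimum-likelihood form of the same test. The windows of the 4 kb around the edge of Fgfr1 and Egfr reached no adjusted p under 0.478. Neither call held with no minimum of tags, with 1 tag per strand within 5 bp, or where a window's input could not be lower than the average of the 10 kb around it. Under the last of these the ratio of the Pdgfra window, which rests on 1 input tag, was 4.19.

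With 10 kb windows the depth was sufficient to call parts of every locus. Of 61 windows lying mostly within the widened loci 13 were higher in the ChIP (21.3%), against a background of 3.98% of 249877 tested windows, and 0 were lower, against 1.11%. The median ratio of the 61 windows was 1.32, against 0.898 over all tested windows, and by locus it was 0.876 in Pdgfra, 1.16 in Tgfbr2, 1.26 in Fgfr1, 1.55 in Pdgfrb and 1.64 in Egfr. The window holding the 5′ edge was called in Pdgfrb, Tgfbr2 and Egfr. In Pdgfra that window held 139 and 35 tags (ratio 1.69, exact adjusted p = 0.0798) and in Fgfr1 96 and 35 (ratio 1.16, exact adjusted p = 0.848), and in these 2 genes the next window inward was called. In Pdgfrb the window at chr18:61200000-61209999 held 239 ChIP and 42 input tags for a ratio of 2.41 (1.73 to 3.44, adjusted p = 2.29e-06, exact binomial test). In Tgfbr2 the window at chr9:116080000-116089999 held 194 and 39, a ratio of 2.11 (1.49 to 3.06, adjusted p = 4.92e-04, exact binomial test). For Fgfr1 the window at chr8:26630000-26639999 held 168 and 39 (ratio 1.83, exact adjusted p = 0.0146), for Pdgfra that at chr5:75550000-75559999 held 150 and 35 (ratio 1.82, exact adjusted p = 0.0269). For Egfr that at chr11:16650000-16659999 held 139 and 33, a ratio of 1.79 with an exact adjusted p of 0.0445. This Egfr call was lost with 1 tag per position and strand (exact adjusted p = 0.0614), with 1 tag per strand within 5 bp (exact adjusted p = 0.0781) and with scaling by its own chromosome (exact adjusted p = 0.0695).

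Besides these windows at the 5′ end, called 10 kb windows lay further inside Egfr, Fgfr1 and Pdgfrb. Egfr had its strongest 48 kb from the edge, at chr11:16700000-16709999, with 155 ChIP and 23 input tags for a ratio of 2.86 (1.84 to 4.65, adjusted p = 2.60e-05, exact binomial test). The window before it (127 and 25, ratio 2.16) and one at chr11:16740000-16749999 (121 and 22, ratio 2.33) were also called. Fgfr1 had a pair at chr8:26640000-26649999 (148 and 26, ratio 2.42) and chr8:26650000-26659999 (162 and 30, ratio 2.29), which hold its runs at 14 to 20 kb and 23 to 31 kb. Pdgfrb had one at chr18:61210000-61219999 (175 and 32, ratio 2.32). In Tgfbr2 the window at chr9:116050000-116059999, with 147 and 36 and a ratio of 1.73, just missed the threshold at an adjusted p of 0.0503 by the exact test.

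Past the 3′ ends of Pdgfrb and Fgfr1 a called window crossed the limit of each widened locus. In Pdgfrb, chr18:61260000-61269999 held 199 ChIP and 34 input tags for a ratio of 2.48 (1.72 to 3.69), of which 103 and 9 lay in the 4 kb outside the limit and 96 and 25 in the 6 kb inside it. In Fgfr1, chr8:26700000-26709999 held 153 and 25, a ratio of 2.60 (1.69 to 4.14), of which 86 and 6 lay in the 3 kb outside the limit and 67 and 19 in the 7 kb inside it. Both windows were therefore denser in ChIP tags outside the widened locus than within it. On GRCm38 the next protein-coding gene on the 3′ side is Csf1r, the receptor of macrophage colony-stimulating factor, for Pdgfrb and Letm2 for Fgfr1; on mm9 these genes were not placed here.

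**Figure D4:**
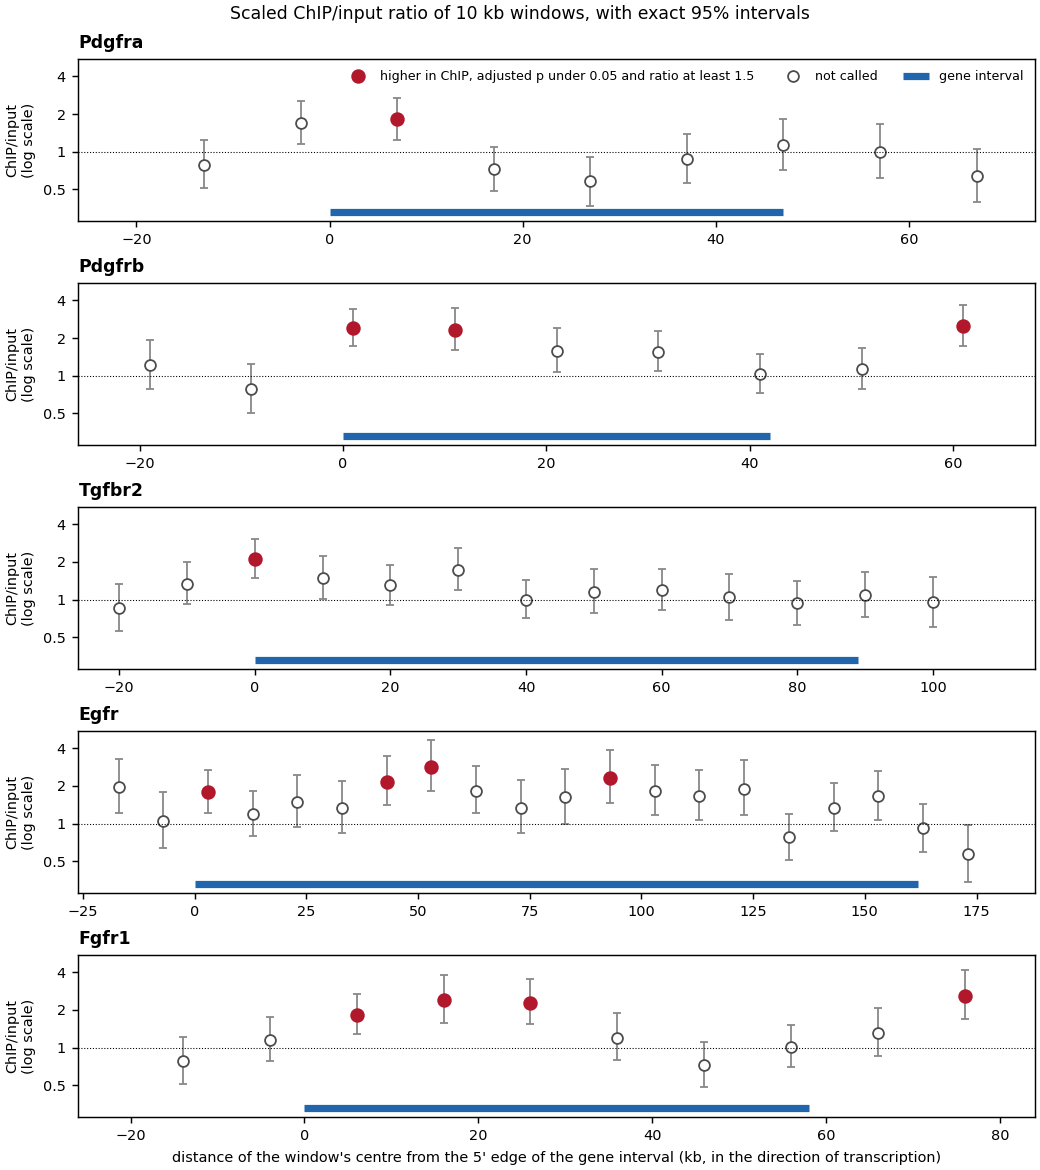
Scaled ChIP/input ratio of the 10 kb windows of each locus on a log axis, with exact 95% intervals, against the distance of the window's centre from the 5′ edge; filled points passed the adjusted p and the ratio, open points did not, and the blue bar spans the gene interval. Called points sit at or next to the 5′ edge of all 5 genes, further inside Pdgfrb, Egfr and Fgfr1, and past the 3′ end of Pdgfrb and Fgfr1.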

How the data were processed

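The deposited values are counts of tags per chromosome, strand and position, with no normalization recorded. Per the submitters' processing notes the authors used Bowtie and mm9; the version, settings and any filter on repeated tags are not given in the sources used here. Each tag was moved 75 bp along its strand. Depth is 13581267 ChIP tags and 5778620 input tags, and precision is given by exact conditional (Clopper-Pearson) 95% intervals. The p-values double the smaller binomial tail over all windows of the genome with at least 10 tags. Windows named are the called ones, those at the 5′ edge and the one with most ChIP tags, plus those said to be chosen later. The members and lists were chosen with earlier results of these data known. The strand came from the RefSeq promoter table for 3 genes and from general knowledge for Pdgfrb and Fgfr1. Odds ratios are conditional maximum likelihood. Other receptors were not analysed here, since no mm9 annotation was used. Steps were tested on simulated data. Python 3.11.15, numpy 2.4.6, scipy 1.17.1, pandas 2.3.3 and matplotlib 3.10.9 were used. Alternatives covered scaling, repeated tags, tag movement, minimums, window sizes, ratios and region sizes.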

Additional observations from a re-analysis of the deposited data

How the results depend on the processing

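Scaling by each gene's own chromosome and the minimum-likelihood form of the test were chosen after seeing the data. The 2 higher windows of 1 kb in the 5 loci became 7 with background scaling, 12 with a minimum of 20 tags and 8 with windows of 2 kb. They became 0 with no minimum, with 500 bp windows, with 1 tag per strand within 5 bp and where a window's input could not be lower than the average of the 10 kb around it; no minimum and 500 bp windows by construction test other windows, and the cause was otherwise not tested. Across the genome the higher windows of 1 kb also rose with background scaling, from 2684 to 6351 of 706215 tested. Those of 10 kb rose from 9952 to 15252 of 249877. With 1 tag per strand within 5 bp the genome had 574 higher windows of 1 kb among 677793 tested. In the 5 loci the 13 higher windows of 10 kb became 20 with background scaling and 10 with a ratio of at least 2. They lay from 12 to 15 in the other alternatives. Of 130 values for these windows 124 kept their call and 6 lost it, 4 of them at the Egfr edge; the Pdgfra window at 75550000 and the Fgfr1 window at 26630000 lost theirs with a ratio of at least 2. The Egfr locus ratio of 1.52 was 1.69 with background scaling. With the interval alone, not widened, the locus ratio was 1.86 in Pdgfrb and 1.60 in Fgfr1. With 1 kb on each side of the edge the 5′ ratio of Pdgfrb was 4.36. The other values of locus and 5′ ratios stayed inside the intervals of the values reported. No ratio with an interval clear of 1 changed direction in any alternative run. No paired analysis was possible because there is only a single library of each kind. As a limit of depth, 27 ChIP tags were the fewest that could be called in 1 kb where the input had 0.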
